A study of Mus musculus with 3 samples.

Results

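Fc receptors bind the constant part of antibodies, and 7 genes of this family or its close relatives are described here in the myeloid cells of the injured mouse heart: Fcgr1, Fcgr2b, Fcgr3, Fcgr4, Fcer1g, Fcgrt and Fcrls. They were chosen by name from the 54752 genes of the count tables, and all 7 were measured. CD45+F4/80+7AAD- cells, that is, living leukocytes carrying a macrophage surface marker, were sorted from the infarct and border zones of hearts of C57BL/6 mice that had surgery on postnatal day 10 (P10) and were 13 days old when sampled, 3 days later. There is 1 single-cell RNA library for each of 3 conditions: P10-sham_vehicle (sham surgery and vehicle), P10-MI_vehicle (myocardial infarction, MI, and vehicle) and P10-MI_SB225002 (MI and SB225002, a small molecule that antagonizes the chemokine receptor CXCR2). Tissue of several hearts was pooled for a library, so animals cannot be told apart, and the 3 libraries share the strain, the age, the sort and the platform (BMKGENE DG1000).

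Cells with 500 to 30000 unique molecular identifiers (UMIs, 1 per captured RNA molecule), 500 to 5000 genes and a mitochondrial share under 10% were kept. These were 2351 cells for P10-sham_vehicle, 3453 for P10-MI_vehicle and 4744 for P10-MI_SB225002, with 21655083, 26121162 and 31400723 UMIs. The median depth fell in the same order, from 8521 to 6400 and 5654 UMIs per cell. Of the 10548 cells, 8652 (82.0%) fell into a cell type by the number of its marker genes detected, and no receptor gene served as a marker. The most numerous cells were C1q+ macrophages, with 1969, 2203 and 2788 cells in the order sham, MI and MI with SB225002, which holds for all values given in threes. They included 894, 811 and 578 Lyve1+Folr2+ macrophages (a resident macrophage phenotype), 19, 128 and 456 Gpnmb+Spp1+ macrophages (the genes of lipid-handling macrophages in injured tissue) and 19, 49 and 58 macrophages high in MHC class II. Outside the C1q+ cells were 8, 180 and 257 Ly6c-high monocytes, 9, 29 and 32 Ly6c-low monocytes and 23, 85 and 171 neutrophils. The monocyte groups of the sham library are thus very small.

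The levels of defining markers are given as UMIs per 1000000 UMIs of the cells (CPM) over the 3 libraries. Apart from Adgre1, the genes named here also assigned the cells, so their levels describe the groups and are no independent check. Ly6c-low monocytes held Ace at 573 CPM and Treml4 at 273, and Ly6c2 was at 4.34 CPM. In Ly6c-high monocytes Ly6c2 was at 838 CPM and Ccr2 at 841. In neutrophils Retnlg was at 8891 CPM, Csf3r at 374 and Ly6g at 101, and Adgre1, which encodes the sorted surface protein F4/80, was at 71.1 CPM against 515 in C1q+ macrophages. Cells that had the markers of Ly6c-high monocytes or neutrophils together with C1q above the limit were kept apart, since they may be a mixture (489 and 363 cells). Their median depth was 10704 and 10412 UMIs against 6470 in C1q+ macrophages, doublets were not called, and whether these cells are doublets was not tested. Between 786 and 1355 barcode sequences were shared by each pair of libraries. Cells with the same barcode in both libraries had a median correlation of 0.372 to 0.413 in their profiles, and pairs with shifted barcodes 0.373 to 0.413.

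Fc receptors link antibodies to the cells of innate immunity. The activating receptors encoded by Fcgr1 (FcγRI, high affinity for IgG2a), Fcgr3 (FcγRIII) and Fcgr4 (FcγRIV) depend on the common γ chain encoded by Fcer1g, whose ITAM motif recruits the kinase Syk and starts phagocytosis and cytokine release. Fcgr2b encodes the inhibitory receptor FcγRIIB, whose ITIM motif recruits the phosphatase SHIP1 and sets the threshold for the activating receptors. Fcgrt encodes the heavy chain of the neonatal Fc receptor (FcRn), which pairs with β2-microglobulin inside the cell and returns IgG and albumin to the circulation. Fcrls encodes an Fc receptor-like protein with a scavenger receptor domain and is best known as a marker of microglia. Fcgr4 is known as a gene of Ly6c-low patrolling monocytes and neutrophils, and Fcgr1 as a gene of macrophages that interferon induces.

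In the GENCODE vM21 annotation (GRCm38), 4 of the 7 genes lie within 276 kb of chromosome 1: Fcgr2b at chr1:170958617-170976547, Fcgr4 at chr1:171018920-171029761, Fcgr3 at chr1:171051174-171064935 and Fcer1g at chr1:171229572-171234365. Fcgr1 (chr3:96282909-96293969) and Fcrls (chr3:87250758-87263738) lie on chromosome 3, and Fcgrt (chr7:45092990-45103851) lies on chromosome 7. All are protein-coding. Fcgr3 and Fcgr2b are near-identical in part, and 13.4% of the 31-base words of Fcgr3 transcripts were also found in Fcgr2b transcripts. Only 0.52% of the words in the last 500 bases of Fcgr3 transcripts were shared with another gene, against 3.06% for Fcgr2b. How reads of shared sequence were counted is not given in the sources used here, so the split between these paralogs is uncertain to that extent. Fcgr2b overlaps the antisense gene Gm38204 over 3175 bases and Fcgrt overlaps the antisense gene Gm45669 over 5331 bases, and the strand setting of the counting is not given either.

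The promoters of Fcgr1 and Fcgr4 are shown because these genes were the only members past the test between interferon-high and other macrophages, as given further on. The search for motifs was added after those values were known, and the windows of all members were searched on both strands. Each sequence is the 250 bases before the RefSeq transcription start (GRCm38.p6), written 5′ to 3′ on the strand of the gene, which is minus for Fcgr1 (chr3:96293970-96294219) and plus for Fcgr4 (chr1:171018676-171018925). Capitals mark the matches to 3 motifs, the gamma-activated site TTCNNNGAA, the interferon regulatory factor element (GAAA, any 2 bases, GAAA), and the PU.1 core GAGGAA.
Fcgr1: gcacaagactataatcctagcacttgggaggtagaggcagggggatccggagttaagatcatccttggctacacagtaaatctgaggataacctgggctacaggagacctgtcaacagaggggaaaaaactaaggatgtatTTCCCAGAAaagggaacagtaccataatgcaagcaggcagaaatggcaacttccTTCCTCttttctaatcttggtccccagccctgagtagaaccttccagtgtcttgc
Fcgr4: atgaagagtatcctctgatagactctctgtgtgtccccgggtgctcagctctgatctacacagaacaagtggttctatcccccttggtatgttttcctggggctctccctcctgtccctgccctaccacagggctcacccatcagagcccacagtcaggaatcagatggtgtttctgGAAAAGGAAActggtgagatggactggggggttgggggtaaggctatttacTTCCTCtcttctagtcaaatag
The Fcgr1 window holds the gamma-activated site TTCCCAGAA at position -109 and the Fcgr4 window the element GAAAAGGAAA at -73, counted from the start site. Both hold the PU.1 core, as TTCCTC, at -55 and -22. Among 32851 promoter windows of the same length, 7.02% held the gamma-activated site, 2.98% the interferon regulatory factor element and 23.3% the PU.1 core. No window of the other 5 members held either interferon motif, and the PU.1 core was also found in those of Fcgr3 and Fcrls. A match shows only that these letters are present.

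Fcer1g, the shared signalling chain, was detected in nearly every myeloid cell. A UMI was found in 98.7% of C1q+ macrophages, 99.3% of Ly6c-high monocytes, 98.6% of Ly6c-low monocytes and 98.6% of neutrophils, against 14.9% of fibroblasts. Free RNA was not measured. The Fcer1g level of fibroblasts (median 27.0 CPM over the libraries) was below that of B cells (58.0) and endothelial cells (104). At a depth of 1000 UMIs per cell the shares were between 86.0% and 89.4% in those 4 myeloid groups and 4.14% in fibroblasts. The level was 2400, 2270 and 2579 CPM in C1q+ macrophages and 5267, 2705 and 4313 CPM in Ly6c-low monocytes. It was 1974, 2448 and 2623 CPM in Ly6c-high monocytes and 1722, 1715 and 2179 CPM in neutrophils. The Ly6c-low monocytes were above all other groups in each library, and their difference from Ly6c-high monocytes did not pass the test given below over all 3 libraries.

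Fcrls marked C1q+ macrophages. Its level was 662, 611 and 610 CPM there, 9.82, 8.79 and 13.9 CPM in Ly6c-high monocytes and 12.2, 27.8 and 15.3 CPM in neutrophils. No other cell type outside the C1q+ cells exceeded 79.2 CPM, a value of the 9 Ly6c-low monocytes of the sham library. A UMI was found in 84.8% of C1q+ macrophages, 7.19% of Ly6c-high monocytes, 10.8% of neutrophils and 7.48% of B cells, and at 1000 UMIs per cell in 43.8%, 1.59%, 1.80% and 0% (0 of 103 B cells, which allows a share of up to 2.91%, that of 3 cells). In these monocytes and neutrophils the Fcrls share therefore lay at the level seen in B cells, at medians of 7390, 7616 and 3094 UMIs per cell, and is read as background. The C1q+ macrophages held 92.9%, 86.6% and 82.9% of all Fcrls UMIs of the 3 libraries.

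Fcgrt was highest in Lyve1+Folr2+ macrophages, at 815, 883 and 781 CPM, followed by the C1q+ macrophages without a subset at 450, 434 and 388 CPM. Gpnmb+Spp1+ macrophages had 177, 352 and 206 CPM, and Ly6c-low monocytes 198, 154 and 305 CPM. These last 2 groups overlapped, whereas the first 2 did not. Ly6c-high monocytes had 49.1, 37.2 and 19.8 CPM and neutrophils 6.12, 25.2 and 15.3 CPM. Fcgrt is not restricted to myeloid cells, and fibroblasts had 156, 165 and 202 CPM and endothelial cells 67.1, 37.5 and 51.1 CPM.

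Fcgr4 was highest in Ly6c-low monocytes in each library, at 990, 323 and 1162 CPM. These values rest on 25, 44 and 80 UMIs. Neutrophils followed with 101, 105 and 169 CPM, next to Gpnmb+Spp1+ macrophages with 70.2, 102 and 129 CPM, and these ranges overlapped. Lyve1+Folr2+ macrophages, at 33.5, 35.9 and 47.3 CPM, had the lowest median of the myeloid groups, although the 8 Ly6c-high monocytes of the sham library were lower at 19.6 CPM (2 UMIs). A Fcgr4 UMI was found in 72.9% of Ly6c-low monocytes, 58.8% of neutrophils and 27.6% of C1q+ macrophages, against 1.12% of fibroblasts, and at 1000 UMIs per cell in 53.0%, 11.2%, 6.60% and 0.296%. Ly6c-low monocytes carried 2.60%, 2.85% and 2.53% of all Fcgr4 UMIs of a library while holding 0.117%, 0.522% and 0.219% of its UMIs.

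The levels of the other Fcγ receptors were more even across macrophages. Fcgr1 in C1q+ macrophages stood at 162, 170 and 206 CPM, and in Ly6c-high monocytes at 147, 170 and 358 CPM. In neutrophils it was at 39.8, 36.5 and 81.2 CPM, and in Ly6c-low monocytes 0, 4 and 7 UMIs were counted (the 0 allows up to 119 CPM, the level of 3 UMIs). Fcgr3 was at 720, 761 and 708 CPM in C1q+ macrophages, 403, 400 and 454 CPM in Ly6c-high monocytes and 379, 361 and 453 CPM in neutrophils, the last 2 groups overlapping. Fcgr2b was at 272, 314 and 276 CPM in C1q+ macrophages and 147, 233 and 173 CPM in Ly6c-high monocytes. In B cells, which use FcγRIIB as their Fcγ receptor, Fcgr2b stood at 124, 122 and 112 CPM, while Fcgr1, Fcgr3, Fcgr4 and Fcer1g were each highest in the B cells of P10-MI_SB225002, on 4, 8, 3 and 41 UMIs in 37 cells. A list of 12 neutrophil markers, longer than the 10 genes of the gate, moved with them, at 91.2, 199 and 504 CPM summed (8, 4 and 4 of the 12 at 0). The 3 C1q genes did so too, at 157, 167 and 235 CPM, and the part of both in these levels was not tested.

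**Figure D1:**
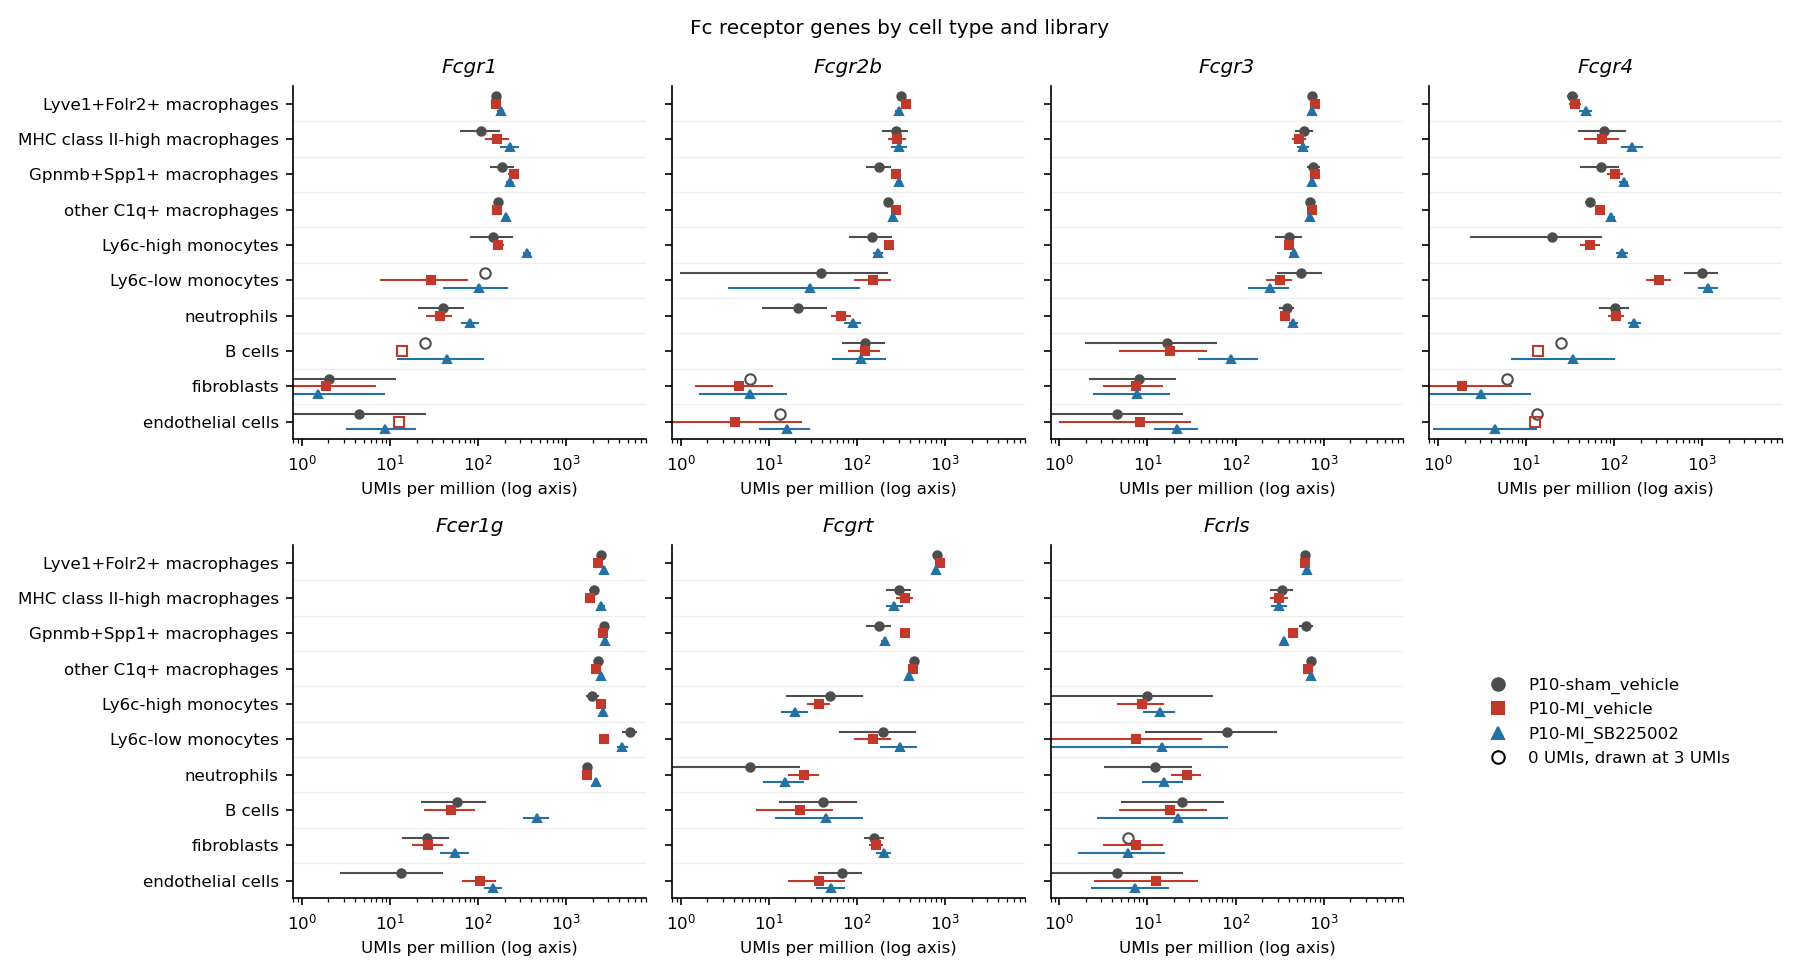
Level of each Fc receptor gene by cell type, in CPM (log axis), with 1 point per library and 95% Poisson intervals that cover counting error only. Open symbols are groups with 0 UMIs, drawn at the 3 UMIs a count of 0 allows, and some low intervals run past the left edge. Fcgr4 is highest in Ly6c-low monocytes, Fcgrt in Lyve1+Folr2+ macrophages, and Fcrls is near background outside the C1q+ cells.

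To ask which receptors differ between cell types, UMIs were summed per library and cell type and compared within libraries by edgeR's quasi-likelihood test with Benjamini-Hochberg adjustment over all genes. Differences are log2 ± SE over 3 libraries, which are also the 3 conditions, so the spread between libraries includes that between conditions. The test draws the spread of each gene towards that of all genes. SE and p-values therefore do not measure how alike the 3 libraries are for 1 gene alone. Between Ly6c-low and Ly6c-high monocytes 2 of the 6 members tested were higher, 1 was lower and 3 did not pass the test, where 8.28% of 2644 genes were higher and 4.95% lower. Fcrls had too few UMIs to be tested. Fcgr4 was higher in Ly6c-low monocytes by 3.22 ± 0.42 (edgeR adjusted p = 7.49e-05) and Fcgrt by 2.68 ± 0.47 (adjusted p = 0.000992). Both were higher in 3 of 3 libraries. Fcgr1 fell by 2.41 on the log2 scale (adjusted p = 0.00384), with 0, 29.3 and 102 CPM against 147, 170 and 358 CPM, and with cells thinned to 1000 UMIs it had too few UMIs to be tested. Fcgr2b differed by -1.33 ± 0.47 (adjusted p = 0.0703), Fcgr3 by -0.44 ± 0.36 (0.426) and Fcer1g by 0.59 ± 0.29 (0.186). Without the P10-MI_vehicle library, Fcgr2b reached an adjusted p of 0.0159 and Fcer1g of 0.0460, and with cells thinned to 1000 UMIs Fcer1g reached 0.0257.

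Between Ly6c-high monocytes and C1q+ macrophages, 4 of 7 members were lower in the monocytes, 0 were higher and 3 did not pass, where 15.0% of 12865 genes were lower and 13.5% higher. At an unadjusted p under 0.05 from edgeR 1 member was higher, and with DESeq2 0 were higher and 3 lower. The differences were -5.63 ± 0.24 for Fcrls (edgeR adjusted p = 9.32e-55) and -4.06 ± 0.21 for Fcgrt (adjusted p = 6.51e-44). Fcgr3, with -0.72 ± 0.16 (adjusted p = 8.21e-05), and Fcgr2b, with -0.51 ± 0.17 (adjusted p = 0.0141), were lower by smaller amounts in 3 of 3 libraries. The Fcgr3 call was lost without P10-MI_vehicle (adjusted p = 0.0580) and with cells thinned to 1000 UMIs (-0.99, 0.121). The Fcgr2b call was lost without P10-MI_vehicle (adjusted p = 0.115), without P10-MI_SB225002 (0.219), without the library term (0.136), with DESeq2 (0.0532) and under thinning (0.332). Fcgr1 (0.41 ± 0.17, adjusted p = 0.0644), Fcgr4 (0.22 ± 0.19, 0.428) and Fcer1g (0.03 ± 0.13, 0.898) did not pass. Without the 8 monocytes of P10-sham_vehicle, Fcgr1 passed in favour of monocytes (0.55, adjusted p = 0.0177).

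In neutrophils compared with Ly6c-high monocytes 4 of the 7 members were higher and 2 lower, where 15.1% of 8557 genes were higher and 6.70% lower. Fcgr4 was higher by 1.62 ± 0.26 (edgeR adjusted p = 2.94e-05) and Fcgr1 lower, with a difference of -1.33 ± 0.24 (adjusted p = 0.000127), each in 3 of 3 libraries. Fcgr2b differed by -0.76 ± 0.25 (adjusted p = 0.0300), also in 3 of 3. With cells thinned to 1000 UMIs, 0 members were higher by edgeR's test, with Fcgr4 at 0.89 (adjusted p = 0.194), Fcgr3 at 0.75 (0.0691; unadjusted p = 0.0164) and Fcer1g at 0.55 (0.108; unadjusted p = 0.0309), and Fcrls was not tested. Fcgr1 remained lower under thinning (-2.14, adjusted p = 0.000655). The Fcgr2b call was lost under thinning (adjusted p = 0.209), with DESeq2 (0.0845), without the library term (0.0858), with 1 more marker per gate (0.0993), without P10-sham_vehicle (0.0802) and without P10-MI_vehicle (0.146). This comparison depended on the scaling. TMM, the main scaling, set the median of all genes at -0.05, whereas scaling to total UMIs, added after the values were seen, set it at -0.84 and turned the calls over all genes from 1294 higher and 573 lower to 500 higher and 4185 lower. With total UMIs the Fcgr4 difference was 0.85 (adjusted p = 0.00868), that of Fcgr1 -2.13 (adjusted p = 8.71e-09) and that of Fcgr2b -1.58 (adjusted p = 9.11e-06). Fcgr3 turned from 0.75 ± 0.19 (adjusted p = 0.00561) to -0.09 (0.725) and Fcer1g from 0.51 ± 0.18 (0.0474) to -0.34 (0.103), so no direction is given for either. Fcrls (1.61 ± 0.43, adjusted p = 0.00695) was at levels read above as background.

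Within the C1q+ macrophages, Fcgr4 and Fcgrt differed in opposite directions between the subsets. Gpnmb+Spp1+ macrophages had 2 members higher and 1 lower than Lyve1+Folr2+ macrophages, and 4 did not pass, where 9.99% of 11457 genes were higher and 10.7% lower. Fcgr4 was higher by 1.59 ± 0.14 (edgeR adjusted p = 2.37e-10) and Fcgrt lower by the same size, with a difference of -1.59 ± 0.14 (adjusted p = 3.74e-10), each in 3 of 3 libraries. Fcgr1 stood at 188, 252 and 229 CPM against 158, 158 and 180 CPM and was higher by 0.62 ± 0.13 (adjusted p = 0.000475), a call lost without P10-MI_vehicle (0.0636) and with cells thinned to 1000 UMIs (0.66, 0.139). Fcrls was at 628, 444 and 358 CPM against 613, 607 and 653 CPM. It differed by -0.30 (adjusted p = 0.117), and passed as lower without the 19 Gpnmb+Spp1+ cells of the sham library (-0.44, adjusted p = 0.00329) and with scaling to total UMIs (-0.46, adjusted p = 0.0107). That scaling set the median of all genes at -0.22 and the calls at 721 higher and 2278 lower, against 1144 and 1221 with TMM. Fcgr2b (-0.15), Fcgr3 (0.18) and Fcer1g (0.27) did not pass.

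Interferon-high macrophages, which had UMIs of at least 4 of 10 interferon-responsive genes, numbered 75, 68 and 113 among the C1q+ macrophages. Their Fcgr1 level was 316, 455 and 432 CPM, and that of the other C1q+ macrophages was 154, 157 and 193 CPM. Fcgr4 was at 76.6, 138 and 174 CPM against 41.8, 55.0 and 86.6 CPM. The groups did not overlap for Fcgr1, and they overlapped for Fcgr4 across libraries though not within any of them. Fcgr1 was higher by 1.29 ± 0.09 (edgeR adjusted p = 6.93e-09) and Fcgr4 by 1.11 ± 0.12 (adjusted p = 1.59e-06). These were 2 of 7 members, with 0 lower (0 at an unadjusted p under 0.05, and 0 with DESeq2), where 2.16% of 12666 genes were higher and 0.261% lower. Fcgr2b (0.22), Fcgr3 (0.00), Fcer1g (0.15), Fcgrt (0.11) and Fcrls (-0.01) did not pass, and Fcgr2b passed as higher without P10-MI_vehicle (0.33, adjusted p = 0.0313). Interferon-high cells had a median of 9098 UMIs against 6340.5 in the others, and with cells thinned to 1000 UMIs both calls held. The Fcgr4 call was lost without the library term (adjusted p = 0.388).

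**Figure D2:**
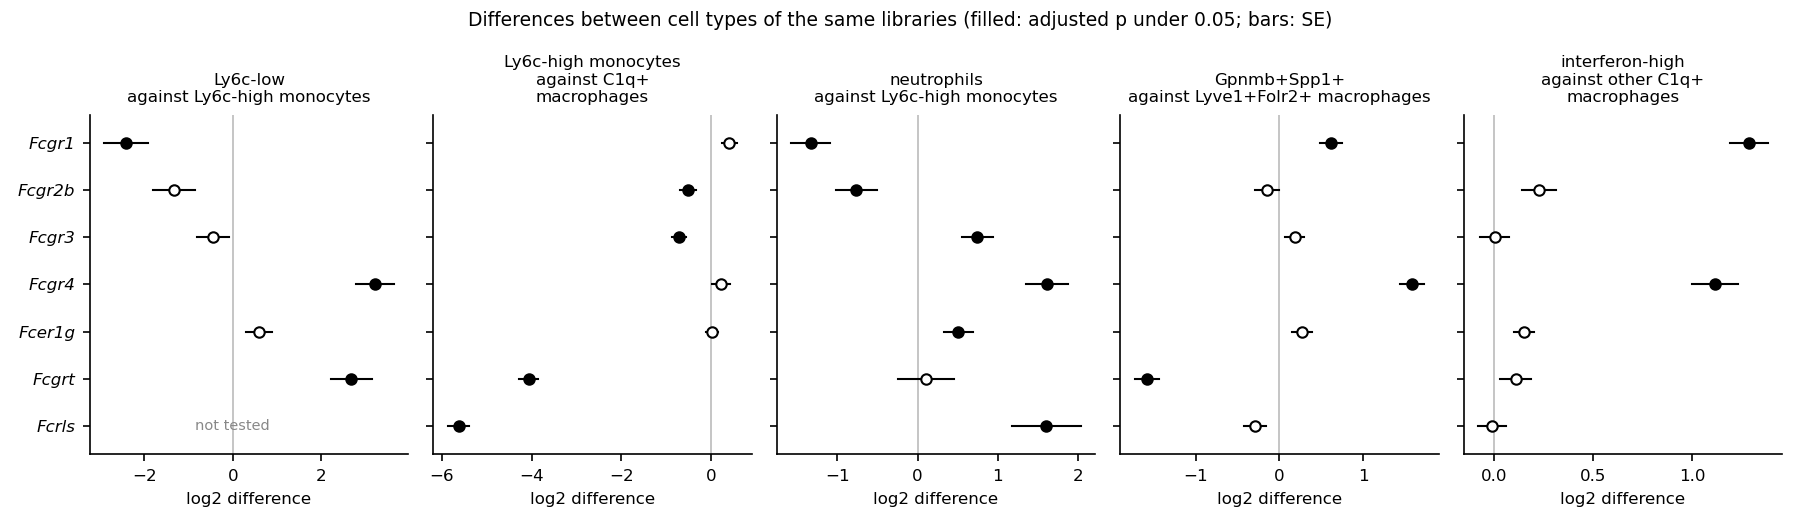
Log2 differences of the members between cell types of the same 3 libraries, with SE as bars and filled points for an adjusted p under 0.05 (edgeR's quasi-likelihood test). Fcgr4 is higher in Ly6c-low monocytes by 3.22, in Gpnmb+Spp1+ macrophages by 1.59 and in interferon-high macrophages by 1.11. In the neutrophil panel Fcgr3 and Fcer1g change sign when scaled to total UMIs.

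The conditions have 1 library each, so ratios between them carry an exact 95% interval for counting error only and no test, and they cannot show more than a difference between these libraries. A log2 ratio of at least 0.5 either way with at least 10 UMIs over both libraries was taken as past the limit. In C1q+ macrophages, 0 of 7 members were past it in P10-MI_vehicle over P10-sham_vehicle, where 10.4% of 15385 genes were higher and 8.71% lower. The median log2 ratio of the members was 0.07, against -0.04 over all genes. The members spanned -0.12 (Fcrls) to 0.43 (Fcgr4, 95% interval 0.29 to 0.57). Fcgr2b had a ratio of 0.21 (0.15 to 0.26) and Fcgr1 of 0.07 (-0.01 to 0.15).

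In P10-MI_SB225002 over P10-MI_vehicle, Fcgr4 was past the limit in C1q+ macrophages, at 91.3 against 58.7 CPM, a log2 ratio of 0.64 (0.52 to 0.76). It was the 1 member higher of 7, with 0 lower, where 9.91% of 15320 genes were higher and 14.2% lower. As a difference of mean log-normalized values, 0 members were higher. The median of the members was -0.00 and that of all genes -0.05. Fcgrt, at 438 against 608 CPM, came closest on the lower side with -0.47 (-0.52 to -0.43), and Fcgr2b had -0.18 (-0.24 to -0.12). Fcgr1 had 0.27 (0.20 to 0.35) and Fcer1g 0.18, while Fcrls (-0.00) and Fcgr3 (-0.10) differed least. The share of Gpnmb+Spp1+ cells, which were high in Fcgr4 and low in Fcgrt, was 3.71% of the cells of P10-MI_vehicle and 9.61% of those of P10-MI_SB225002, and that of Lyve1+Folr2+ cells 23.5% and 12.2%. With the subsets weighted as in P10-MI_vehicle, the ratio was 0.42 for Fcgr4, under the limit, and -0.20 for Fcgrt. Without interferon-high cells it was 0.65 for Fcgr4, an alternative chosen after seeing the data.

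In Ly6c-high monocytes the same comparison gave larger ratios for Fcgr1 and Fcgr4. Fcgr1 was at 358 against 170 CPM, a log2 ratio of 1.08 (0.87 to 1.29), and Fcgr4 at 123 against 53.4 CPM, a ratio of 1.20 (0.83 to 1.58). With Fcrls (0.66, -0.34 to 1.73, at background levels) 3 of 7 members were higher and 1 was lower, where 14.9% of 10406 genes were higher and 18.4% lower. As a difference of mean log-normalized values, 1 member was higher and 0 lower. The values that follow are again ratios of CPM. The lower member was Fcgrt, on 40 against 55 UMIs, with -0.91 (-1.53 to -0.29). Fcgr2b had -0.43 (-0.65 to -0.21), Fcgr3 0.19 (0.03 to 0.34) and Fcer1g 0.10 (0.04 to 0.16). The median of the members was 0.19 and that of all genes -0.00. The summed level of the 10 interferon-responsive genes moved with these ratios, at 284 CPM in P10-MI_vehicle (most abundant Irf7) and 706 CPM in P10-MI_SB225002 (most abundant Isg15, and 1 of the 10 genes at 0). Without interferon-high monocytes the ratios were 0.95 for Fcgr1 and 1.01 for Fcgr4. Of P10-MI_vehicle over P10-sham_vehicle, which rests on 8 sham monocytes, 2 of 7 members were higher (Fcgr2b 0.66 and Fcgr4 1.44, the latter on 79 against 2 UMIs with an interval from -0.46) and 0 lower, where 35.9% of 9051 genes were higher and 24.1% lower, a share that leaves nothing to read from the members.

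**Figure D3:**
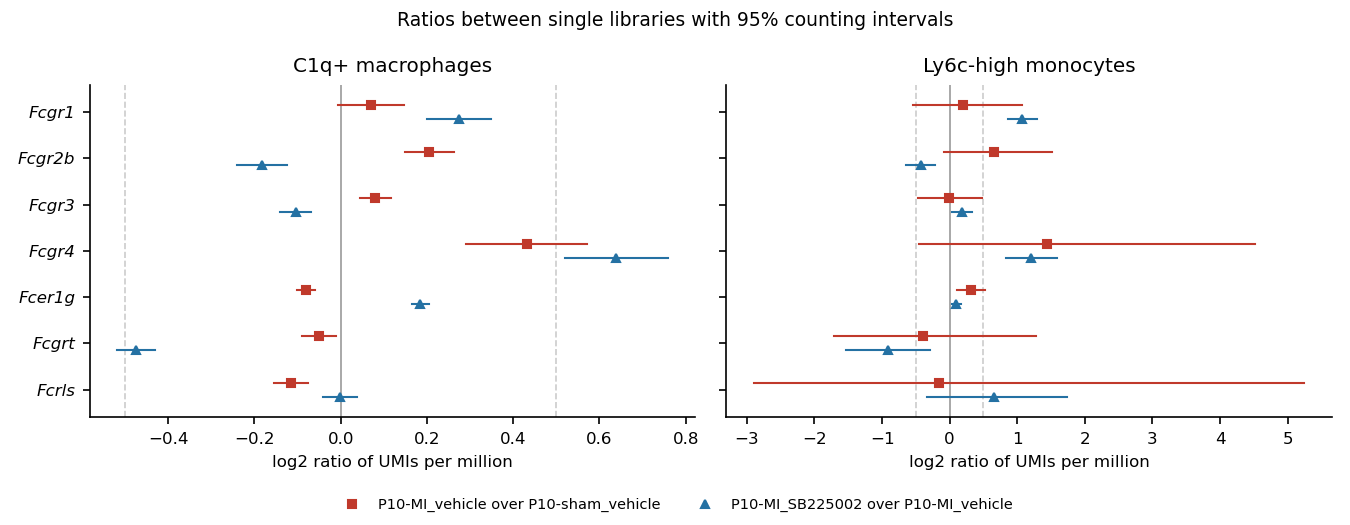
Log2 ratios of CPM between single libraries for the 7 members in C1q+ macrophages and Ly6c-high monocytes, with 95% intervals for counting error and dashed lines at the limit of 0.5 either way. In P10-MI_SB225002 over P10-MI_vehicle, Fcgr4 is at 0.64 in macrophages and 1.20 in monocytes, and Fcgr1 at 0.27 and 1.08.

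In P10-MI_SB225002 over P10-MI_vehicle the Fcgr4 log2 ratio was 0.40 in Lyve1+Folr2+, 0.33 in Gpnmb+Spp1+, 1.15 in MHC class II-high and 0.41 in other C1q+ macrophages. With cells thinned to 1000 UMIs, an alternative added after the values were seen, it was 0.03 (-0.91 to 0.94) in Lyve1+Folr2+ and 0.85 (0.03 to 1.77) in Gpnmb+Spp1+ macrophages. In MHC class II-high macrophages it became 1.70 (-0.63 to 4.97), and in other C1q+ macrophages 0.49 (0.10 to 0.89). Thinning leaves far fewer UMIs and widens the intervals, and those of the Lyve1+Folr2+ and MHC class II-high subsets cover 0. The part of depth in these ratios was not tested. Without thinning, the Fcgr4 ratio was 0.68 (0.35 to 1.03) in neutrophils and 1.85 (1.30 to 2.41) in Ly6c-low monocytes, where 80 UMIs in 32 cells stood against 44 in 29 cells. Thinned, the neutrophil ratio was 1.32 (-0.09 to 3.06), and the Ly6c-low ratio was 1.36 (0.51 to 2.26), on 42 against 17 UMIs, with the P10-MI_vehicle level at 586 in place of 323 CPM. In the C1q-low cells with Gpnmb and Spp1 its interval reached below 0 (0.84, -0.01 to 1.81). Fcgr1 had 1.16 (0.61 to 1.72) in neutrophils and 0.32 in other C1q+ macrophages, and in Gpnmb+Spp1+ macrophages -0.14 (-0.32 to 0.05), which became 0.14 (-0.49 to 0.80) when thinned, both intervals covering 0. Fcgrt was at -0.77 in Gpnmb+Spp1+ and -0.18 in Lyve1+Folr2+ macrophages but at 0.99 (0.04 to 1.93) in Ly6c-low monocytes. The 10 interferon-responsive genes summed to 69.4 and 263 CPM in neutrophils and 51.3 and 523 CPM in Ly6c-low monocytes of P10-MI_vehicle and P10-MI_SB225002, to 166 and 246 CPM in C1q+ macrophages, and to 289 and 248 CPM in Gpnmb+Spp1+ macrophages. Their part in the Fcgr1 and Fcgr4 ratios beyond the values given above was not tested.

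**Figure D4:**
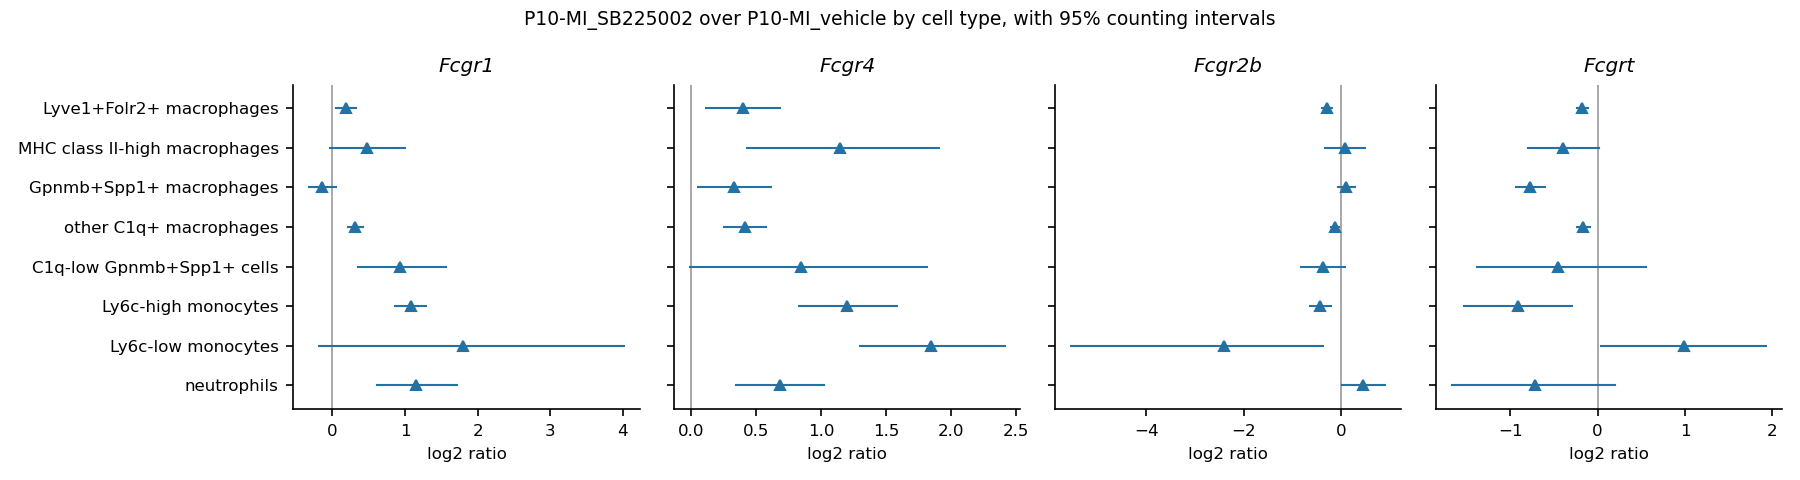
Log2 ratio of P10-MI_SB225002 over P10-MI_vehicle for Fcgr1, Fcgr4, Fcgr2b and Fcgrt by cell type, with 95% intervals for counting error (1 library per condition). Fcgr4 lies above 0 in all groups shown, from 0.33 in Gpnmb+Spp1+ macrophages to 1.85 in Ly6c-low monocytes, with 1 interval reaching below 0. With cells thinned to 1000 UMIs (not drawn) it is 0.03 in Lyve1+Folr2+ and 0.85 in Gpnmb+Spp1+ macrophages.

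The balance of activating over inhibitory receptors was taken as the UMIs of Fcgr1, Fcgr3 and Fcgr4 over those of Fcgr2b within each group of cells, and it is a ratio of RNA counts, not of protein. In C1q+ macrophages it was 3.40 (95% counting interval 3.30 to 3.51), 3.16 (3.06 to 3.26) and 3.64 (3.52 to 3.76). In Ly6c-high monocytes it was 3.87 (2.16 to 7.35), 2.67 (2.36 to 3.03) and 5.40 (4.82 to 6.07), so that the intervals of the 2 MI libraries did not overlap. With cells thinned to 1000 UMIs the macrophage ratios were 3.17 (2.88 to 3.49), 3.13 (2.87 to 3.41) and 3.85 (3.54 to 4.19), so that sham and P10-MI_vehicle overlapped. Thinned monocytes had 2 (0.287 to 22.1), 2.62 (1.79 to 3.89) and 6.33 (4.52 to 9.07), where again the MI libraries were apart and the sham interval covered both. Neutrophils had 24.3 (11.5 to 61.3, on 7 Fcgr2b UMIs), 7.62 (5.99 to 9.81) and 7.79 (6.32 to 9.69), and thinned 14 (on 1 Fcgr2b UMI), 6.4 and 10.6. Ly6c-low monocytes, on 1, 21 and 2 Fcgr2b UMIs, had 39.0, 4.33 and 52.0. B cells, in which FcγRIIB is the main Fcγ receptor, had 0.133 (0.0148 to 0.573), 0.148 (0.0377 to 0.425) and 1.5 (0.630 to 3.73), the last on 15 activating against 10 Fcgr2b UMIs. The myeloid adaptor Tyrobp stood at 157, 204 and 538 CPM in the same B cells, and its part in the ratio was not tested. Within the activating UMIs, Fcgr4 made up 4.70%, 5.92% and 9.09% in C1q+ macrophages and 3.45%, 8.58% and 13.1% in Ly6c-high monocytes, and Fcgr1 25.9%, 27.3% and 38.3% in the latter.

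**Figure D5:**
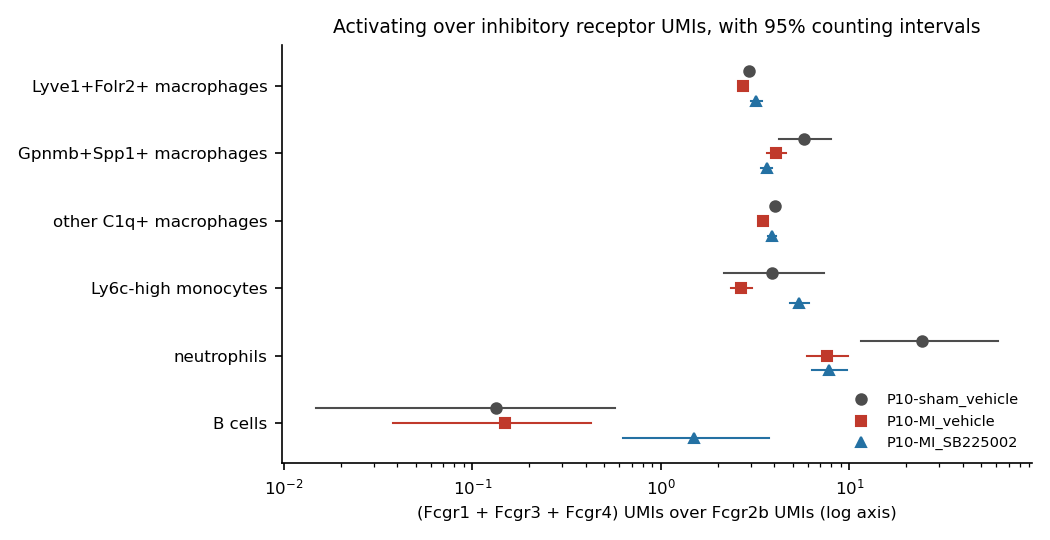
UMIs of the activating receptors (Fcgr1, Fcgr3 and Fcgr4) over UMIs of the inhibitory Fcgr2b by cell type and library, on a log axis with 95% counting intervals. In Ly6c-high monocytes the ratio is 2.67 in P10-MI_vehicle and 5.40 in P10-MI_SB225002.

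Other genes of the Fc receptor pathway were followed in lists written by function. Of 13 kinases and adaptors of the activating signal, 8 were higher and 0 lower in Ly6c-high monocytes than in C1q+ macrophages (median difference 0.59, against -0.06 over all genes, of which 13.5% were higher and 15.0% lower). Examples are the Src family kinase Fgr (3.29), the phospholipase Plcg2 (1.28) and the adaptor Card9 (1.10). Of 11 genes of the inhibitory signal, 5 were higher, among them the phosphatase Ptpn6 (0.91) and the receptors Pirb (0.89) and Lilrb4a (0.84), and 2 were lower, led by the SHIP2 gene Inppl1 (-1.57). Scaled to total UMIs, 8 activating genes were higher and 1 lower (Vav3 -0.49, edgeR adjusted p = 0.0144), and 5 inhibitory genes were higher and 3 lower. In Gpnmb+Spp1+ against Lyve1+Folr2+ macrophages 4 of the 13 activating genes were higher (Fgr 2.33, Lat2 1.21, Plcg2 0.61 and Syk 0.35), as were 4 of the 11 inhibitory genes, with 1 lower (Dok2 -0.82), where 9.99% of all genes were higher and 10.7% lower. Scaled to total UMIs, 3 activating genes were higher and 2 lower (Vav3 -0.50, edgeR adjusted p = 0.00351, and Lyn -0.41, 0.0174), and 3 inhibitory genes were higher and 1 lower, since the Syk call (0.18, adjusted p = 0.341) and the Pirb call (0.22, 0.210) were lost. In Ly6c-low against Ly6c-high monocytes the higher genes were 3 of 10 tested in the activating list (among them Fgr 1.49 and Vav3 1.34) and 1 of 8 in the inhibitory list (Cblb 3.07), where 8.28% of all genes were higher and 4.95% lower. In neutrophils against Ly6c-high monocytes 4 of 13 activating genes were higher and 1 lower with TMM, where 15.1% of all genes were higher and 6.70% lower. Scaled to total UMIs 0 were higher (0 at an unadjusted p under 0.05 from edgeR) and 5 lower, so no direction is given for the list. Between libraries, 1 of the 13 activating genes was past the limit in C1q+ macrophages in MI over sham and 2 in SB225002 over vehicle, all higher, and 0 of the 11 inhibitory genes were past it in either. Over all genes the shares were 10.4% higher and 8.71% lower in the first and 9.91% and 14.2% in the second.

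The C-type lectins and paired receptors that also use the FcRγ chain are Clec4e, Clec4d, Clec4n, Oscar and Pira2. In Ly6c-high monocytes against C1q+ macrophages 3 of 4 tested were higher, namely Clec4e (Mincle, 3.53), Pira2 (3.38) and Clec4d (1.66), where 13.5% of all genes were higher and 15.0% lower. In Gpnmb+Spp1+ against Lyve1+Folr2+ macrophages 2 of 4 were higher (Clec4e 2.55 and Clec4d 2.21), where 9.99% of all genes were higher and 10.7% lower. In Ly6c-low against Ly6c-high monocytes 0 of 3 tested passed edgeR's test, and in interferon-high against other macrophages 0 of 4, with 0 at an unadjusted p under 0.05 in either. Of all genes 8.28% were higher and 4.95% lower in the former and 2.16% and 0.261% in the latter. In neutrophils against Ly6c-high monocytes, with TMM, Pira2 (1.51) and Clec4d (1.01) were higher and Clec4n was lower (-1.11), with 15.1% of all genes higher and 6.70% lower, but Clec4d did not pass when scaled to total UMIs (edgeR adjusted p = 0.455). Clec4d in C1q+ macrophages stood at 28.7, 62.8 and 129 CPM and Clec4e at 6.08, 16.7 and 24.2 CPM. Clec4d had a log2 ratio of 1.13 in MI over sham and 1.04 in SB225002 over vehicle, and Clec4e of 1.45 and 0.54. The kinase Fgr stood at 5.42, 21.5 and 49.99 CPM in these cells. Over the 3 libraries the Gpnmb+Spp1+ share of cells was 0.808%, 3.71% and 9.61% and that of Lyve1+Folr2+ cells 38.0%, 23.5% and 12.2%. The ratios within subsets follow for Clec4d, Clec4e and Fgr in this order, with the counting interval where it covers 0. Within Lyve1+Folr2+ macrophages MI over sham gave 1.21, 1.82 and 2.43. There SB225002 over vehicle gave 0.21 (-0.04 to 0.45), -0.52 and 0.38 (-0.08 to 0.83). Within Gpnmb+Spp1+ macrophages, 19 cells in the sham library, MI over sham gave -0.30 (-0.78 to 0.20), -1.72 and 0.66 (-0.30 to 1.78). In that subset SB225002 over vehicle gave 0.98, 0.40 (-0.05 to 0.88) and 0.41. Within the other C1q+ macrophages (3948 cells) MI over sham gave 0.95, 1.86 and 1.52, and SB225002 over vehicle 0.77, 0.45 and 1.37. Among partners, the β2-microglobulin gene B2m, which FcRn needs, was lower in Ly6c-high monocytes than in C1q+ macrophages (-0.46), and in interferon-high macrophages it was higher (0.39), as was the intracellular antibody receptor Trim21 (1.32). Tyrobp, the adaptor related to Fcer1g, was higher in Gpnmb+Spp1+ macrophages (0.52).

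Receptors for other antibody classes were nearly absent from macrophages and monocytes. Of 12 further Fc and Fc-like receptors, 9 had a UMI in any kept cell, and 3 (Fcrl1, Fcrla and Trim21) had enough UMIs in C1q+ macrophages to be compared. Fcmr, the receptor for IgM, was at 240, 185 and 224 CPM in B cells and had 1 UMI in all C1q+ macrophages. Fcer2a, the low-affinity IgE receptor of B cells, had 4 UMIs in C1q+ macrophages and was at 0, 40.7 and 190 CPM in B cells. Fcrl1, a B-cell gene, was at 1.93, 4.04 and 4.002 CPM in C1q+ macrophages, on 166 UMIs. It was higher in Gpnmb+Spp1+ than in Lyve1+Folr2+ macrophages (2.17 ± 0.49, edgeR adjusted p = 0.00135). The 7 B-cell markers summed to 28.6, 27.2 and 26.2 CPM in Lyve1+Folr2+ and 25.9, 26.2 and 27.7 CPM in Gpnmb+Spp1+ macrophages, with Cd79b the most abundant in both. The part of B-cell RNA in the Fcrl1 levels was not tested.

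The likeness of other genes to each member was described by Pearson's r of log2 levels over 33 profiles, among 7701 genes that reached 50 CPM in a profile. Each profile is a group of at least 20 cells of a library. Fibroblasts, endothelial cells, B cells and the cells kept apart as possible mixtures were among these groups. An r thus includes the difference between myeloid and other cells, and the part of that difference was not tested. The profiles of a library share its depth and treatment, so r is a description with no test. Closest to Fcgr3 were Clec4a2 (0.99), C5ar1 (0.98) and Cfp (0.98), and to Fcer1g the adaptor gene Tyrobp (0.98), Clec4a2 (0.98) and C5ar1 (0.98). Fcgr4 was most like Pilra (0.96), Slc11a1 (0.93) and Rasgrp4 (0.93), and Fcgr1 most like Clec4n (0.95), Fcgr3 (0.94) and Pla2g7 (0.93). Fcgr2b was most like Cd84 (0.94), AI662270 (0.94) and Ctsc (0.93). For Fcrls the closest were C1qc (0.97) and C1qa (0.96), which served as markers of the C1q+ cells, and Mrc1 (0.96). Fcgrt stood apart, with no gene above 0.89 (Mtr), and its r with the other 6 members was 0.17 to 0.69.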

How the data were processed

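The authors sorted CD45+F4/80+7AAD- cells, made 1 BMKGENE DG1000 library per condition, sequenced it on a NovaSeq and deposited raw UMI counts per gene and barcode, not normalized. Their processing notes name mm10 and Seurat 4.1.0, and the aligner, counter and annotation are not given in the sources used here. The members and lists were chosen with earlier results of these data known.

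Cells (limits as in the study's methods) were assigned with Python 3.11.15, numpy 2.4.6 and scipy 1.17.1 by markers detected: C1q+ macrophages by 16 C1qa, C1qb and C1qc UMIs per 10000 and at least 2 of these genes, neutrophils by 4 of 10 genes, interferon-high cells by 4 of 10 and the other types by 3 of their markers. These limits were set after seeing the cells. Median depth after the filter was 8521, 6400 and 5654 UMIs per cell. UMIs were summed per library and cell type and given per 1000000 UMIs (CPM). Cell types were compared with edgeR 4.0.16 in R 4.3.3 (quasi-likelihood test, TMM, filterByExpr, library as a term so that each library is its own block, Benjamini-Hochberg over all genes), with DESeq2 1.42.0 as an alternative, and SE is the absolute log2 difference over the square root of F. Conditions, with 1 library each, were compared by ratios of counts with exact conditional 95% intervals, and shares of cells carry exact Clopper-Pearson intervals. Intervals cover counting error only. On simulated data with 100 genes changed by a log2 of 2, the test recovered 49% in Ly6c-low against Ly6c-high monocytes and 96% in Gpnmb+Spp1+ against Lyve1+Folr2+ macrophages. With a log2 of 1 it recovered 22% and 67%, and at both sizes the other comparisons lay between. Outside the changed genes, 0 and 7 were called. The simulation gave every gene the same set dispersion, not fitted to these data, and changed only genes above a minimum of UMIs. These shares therefore describe the simulation and may not hold for the real sums. Named genes are the 7 members and up to 4 of each pathway list with the largest differences, and some list genes are not reported here. Fgr and Clec4d levels, and the list of interferon genes beside the ratios, were singled out after their values were seen. Promoters come from RefSeq (GRCm38.p6) and gene positions from GENCODE vM21 (GRCm38), matched by symbol for 7 of 7 members.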

Additional observations from a re-analysis of the deposited data

Results flagged for a closer look

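The ratio of P10-MI_vehicle over P10-sham_vehicle went in opposite directions in C1q+ macrophages and Ly6c-high monocytes for Fcer1g, at -0.081 on the log2 scale in macrophages and 0.31 in monocytes. In P10-MI_SB225002 over P10-MI_vehicle the same held for Fcgr3, at -0.10 in macrophages and 0.19 in monocytes. Each of these 4 values has a counting interval that leaves out 0, each condition has 1 library, and the differences between the cell types were not tested. The monocyte value of Fcer1g rests on the 8 Ly6c-high monocytes of the sham library. In P10-MI_vehicle over P10-sham_vehicle the median log2 ratio of all genes was -0.04 in macrophages and 0.14 in monocytes, with the same signs as Fcer1g. In P10-MI_SB225002 over P10-MI_vehicle it was -0.05 and -0.003.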

How the results depend on the processing

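With 1 library per condition, animals, library and condition cannot be told apart, and the 8 and 9 sham monocytes set the depth of every value that uses them. No paired analysis of the conditions was possible because each condition has 1 library. The cell-type tests have the library as a block, and without it the neutrophil comparison had 1 lower member and the interferon-high comparison 1 higher. The Fcgr2b call in Ly6c-high monocytes against C1q+ macrophages was also lost without this block.

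Of 259 alternative values of single members between conditions, 198 moved by less than the counting interval, 58 by more and 3 changed sign, namely Fcgrt in SB225002 over vehicle in neutrophils, at 1.32 on 5 against 1 UMIs when thinned, and Fcgr2b in MI over sham in Ly6c-high monocytes, at -0.21 when thinned to 1000 UMIs per cell and -0.036 as a difference of mean log-normalized values. Of 366 for the cell-type tests, 326 kept direction and call, 29 lost and 9 gained the call and 2 changed sign, namely Fcgr3 (-0.086) and Fcer1g (-0.34) in neutrophils when scaled to total UMIs. As a difference of mean log-normalized values, the higher members became 0 in SB225002 over vehicle in macrophages, 0 in MI over sham in monocytes, and 1 higher and 0 lower in SB225002 over vehicle in monocytes. With the makeup of P10-MI_vehicle the macrophage count was 0. In MI over sham in monocytes 1 more marker gave 1 higher, and 2 lower came from thinning, 1 from a mitochondrial share under 5% and 2 without cells above 20000 UMIs.

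In Ly6c-low against Ly6c-high monocytes thinning gave 0 lower, 1 more marker 2, and leaving out a library 1 to 2 (2 without P10-MI_vehicle). In Ly6c-high monocytes against macrophages 1 more marker gave 1 higher and thinning 2 lower, with 0 to 1 higher (1 without P10-sham_vehicle) and 2 to 4 lower (2 without P10-MI_vehicle) when a library was left out. In neutrophils DESeq2 gave 2 higher and 1 lower, thinning 0 and 1 (Fcgr4 and Fcgr2b no longer passing, Fcgr1 still lower), scaling to total UMIs 1 higher and 1 more marker 1 lower, with 1 to 3 higher (1 without P10-MI_SB225002, 2 without P10-MI_vehicle) and 1 to 2 lower when a library was left out. In Gpnmb+Spp1+ against Lyve1+Folr2+ macrophages thinning gave 1 higher and total UMIs 2 lower, with 1 to 2 higher (1 without P10-MI_vehicle) and 1 to 2 lower (2 without P10-sham_vehicle) when a library was left out. The activating over inhibitory ratio in macrophages was 3.17 (sham), 3.13 (P10-MI_vehicle) and 3.85 (SB225002) when thinned and 3.57 (sham) with a mitochondrial share under 5%, and in Ly6c-high monocytes 2 (sham), 2.62 (P10-MI_vehicle) and 6.33 (SB225002) when thinned, and in neutrophils 10.6 (SB225002) when thinned. The causes of these shifts were not tested.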
